A study of Rattus norvegicus with 6 samples.

Results

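The cell cycle regulators and proliferation genes of the rat vestibular sensory epithelium were examined after subchronic exposure to streptomycin. The members were the protein-coding genes whose symbol named a cyclin of the A, B, D or E type, a cyclin-dependent kinase (CDK) numbered 1 to 7, a CDK inhibitor of the numbered families, an E2F factor, a pocket protein, a subunit of the Mcm2 to Mcm7 helicase, Pcna, or 1 of a few mitotic genes (Mki67, Top2a, Aurka, Aurkb, Plk1, Bub1, Bub1b, Cdc20, Cdc25a, Cdc25b, Cdc25c and Birc5). This rule read the symbol alone and took 52 of the 22250 protein-coding genes, out of 32883 genes in all. RNA was sequenced from 6 Long-Evans rats. The 3 STREP rats received streptomycin at 500 mg/kg under the skin, daily for 6 weeks from postnatal day 21, and the 3 Control rats received the PBS vehicle over the same period. Each group held 2 males (replicates 1 and 2) and 1 female (replicate 3), each library held the 2 utricles and 6 cristae of 1 animal, and by the labels all 6 shared a batch. The titles of STREP replicates 1 and 2 share a code and differ in a suffix that the labels do not explain, so how far these 2 were independent is not given. Leaving out either one is reported with the calls. Each library was therefore a mixture of hair cells (HCs), supporting cells, nerve and connective tissue, in which fewer cells of a type and less RNA per cell cannot be told apart.

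In a dividing cell, D cyclins with Cdk4 or Cdk6 and E cyclins with Cdk2 phosphorylate the pocket proteins, which releases E2F factors to switch on the genes of DNA replication, and A and B cyclins with Cdk1 then drive mitosis. CDK inhibitors of the Cip/Kip and Ink4 families hold these kinases back. The HCs of the adult mammalian vestibular epithelium are postmitotic, and Cdkn1b, Rb1 and other brakes of the cycle are known for keeping inner ear cells from dividing, while several D cyclins, kinases and E2F factors are also present in cells that no longer divide.

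Library totals ran from 48568191 to 59906048 counts in the Control group and from 29333584 to 33744909 in the STREP group, without overlap (exact two-sided permutation test p = 0.1, the smallest that 3 against 3 allows). A count of 0 in a library allows up to 3 counts, or 0.0501 to 0.102 CPM (counts scaled to the library total), and this limit covers counting error only. Of the 52 members, 48 were tested and 40 had more than 3 counts in every library. Cdkn2a, an Ink4 family inhibitor, had a single count in the STREP 3 library. The atypical E2F factor E2f8 was seen in the Control 1 library only, Ccnb3 had no count in any library, and Birc5, the survivin of the mitotic centromere, stayed at or under 5 counts in each. These 4 were not tested. A gene was called when its DESeq2 adjusted p, taken over all 16250 genes tested, was under 0.05 and its fold change over 1.5.

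A total of 5 members of the cell cycle set changed after streptomycin and the remainder did not pass the test. Cdkn1c, E2f6, E2f4 and Rb1 rose and Ccnd2 fell, while the replication and mitosis genes held no call. The 4 that rose were 8.33% of the tested members, against 1.87% of all genes tested, and the 1 that fell was 2.08%, against 1.37%. In both directions together 10.4% of members and 3.24% of all genes were called. The same 5 members passed the adjusted p with no fold threshold, as did 3.72% of all genes. The median log2 fold change of the members was -0.0018, beside 0.0069 over all genes tested, with 24 members above 0 and 24 below. The median size of the change, regardless of sign, was 0.31 on the log2 scale for members and 0.21 for all genes tested.

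**Figure D1:**
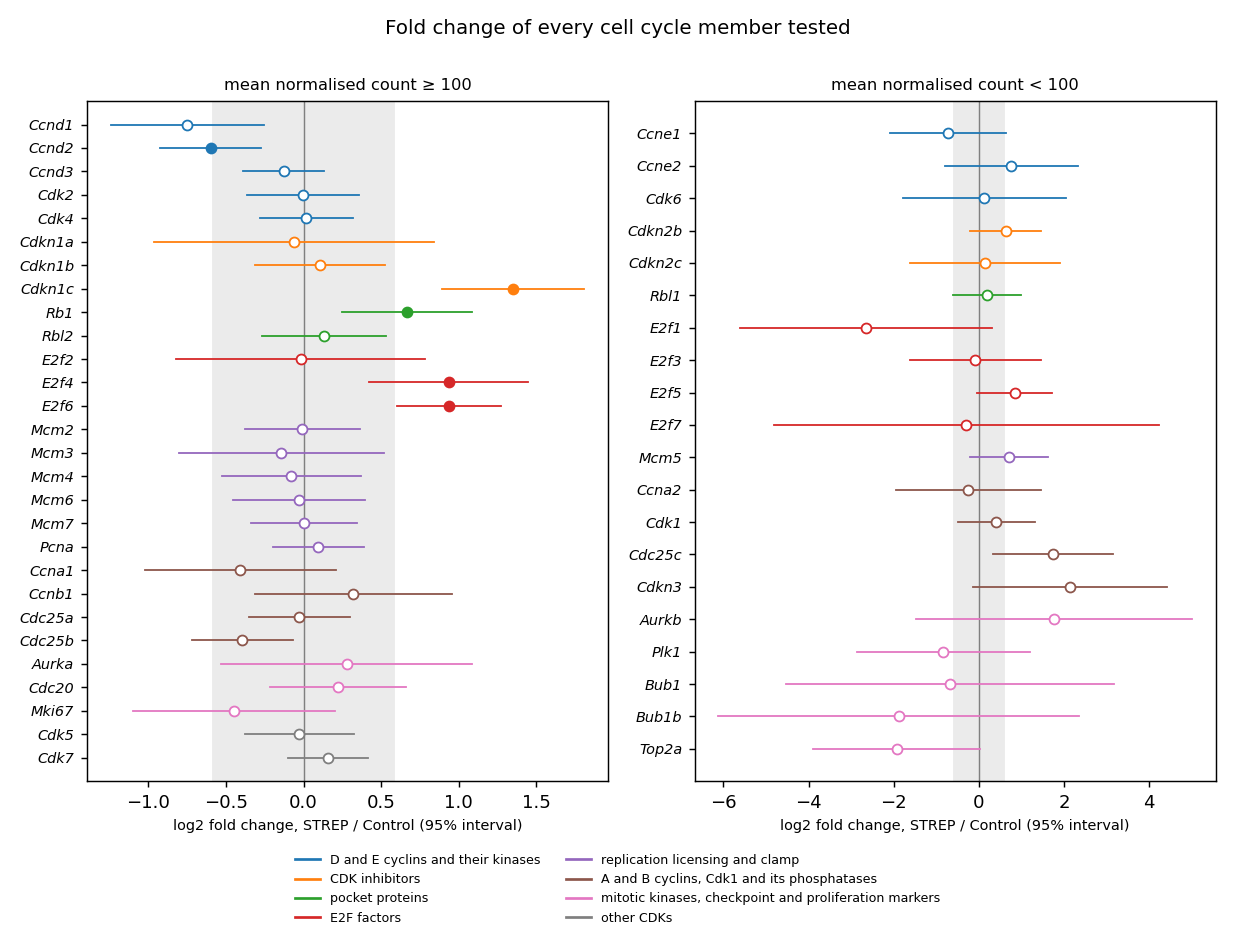
Log2 fold change (STREP over Control) of the 48 members tested, with 95% intervals, coloured by role, split at a mean of 100 normalised counts (left, the 28 members at or above it, and right, the members below it, on a wider axis). Filled points mark the 5 called members, and the grey band is a fold of 1.5 either way. The called members all sit on the left, where the intervals are narrow.

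Precision followed the level of the gene. The 28 tested members that averaged 100 or more normalised counts had a median coefficient of variation of 13.2% among Control animals and 11.6% among STREP animals, and standard errors (SE) of the log2 fold change between 0.13 and 0.46. Those below that level, 18 with a mean of 10 to 100 and 2 under 10, had medians of 45.7% and 56.1%, with SEs from 0.41 to 2.30. The 95% interval of the fold change lay wholly within 1.5-fold for 13 members (27.1% of those tested, against 37.5% of all genes tested), and all 13 were among the 28 higher ones.

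The CDK inhibitors were led by Cdkn1c (ENSRNOG00000059500), the p57 member of the Cip/Kip family. Its normalised counts were 2883, 1682 and 3038 in Control (replicates 1 to 3, in this order throughout), and 5816, 5406 and 8147 in STREP. Every STREP animal was above every Control animal. The change was 1.35 ± 0.23 (log2 fold change ± SE, n = 3 per group), a fold of 2.55, with a DESeq2 adjusted p of 1.49e-06. Cdkn1c was called in all 15 alternative fits, at log2 fold changes of 1.12 or more.

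No other inhibitor passed the test. Cdkn1a, the p21 member of the Cip/Kip family, had normalised counts of 151, 73.1 and 197 in Control and 193, 126 and 83.8 in STREP. The groups overlapped throughout, and the log2 fold change of -0.06 had a 95% interval from -0.97 to 0.84. Cdkn1b, the p27 that marks differentiated cells, had 368, 345 and 443 in Control and 393, 433 and 416 in STREP. Those values also overlapped, and the change of 0.10 (95% interval -0.31 to 0.52) lay within 1.5-fold. Of the Ink4 inhibitors, Cdkn2b was without overlap, from 43.4 to 94.6 in Control and from 100.4 to 117 in STREP, but its change of 0.63 ± 0.43 did not pass (adjusted p = 0.640). Cdkn2c stayed between 7.56 and 34.6 in all 6 libraries.

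Among the pocket proteins, Rb1 (ENSRNOG00000016029), the retinoblastoma protein that binds the activating E2F factors, rose. Its normalised counts were 757, 616 and 481 in Control and 952, 1087 and 904 in STREP. The lowest STREP animal stood above the highest Control animal, and the change was 0.67 ± 0.21, a fold of 1.59 (adjusted p = 0.0490). This call sat at the edge of both thresholds. It was made in 4 of the 15 alternative fits, and it was lost in edgeR (adjusted p = 0.139) and without any 1 of Control 2, Control 3 or the STREP animals, with adjusted p from 0.0738 to 0.238. Rbl1, the p107 of cycling cells, and Rbl2, the p130 of resting cells, were not called, at 0.20 (95% interval -0.60 to 1.00) and 0.13 (-0.27 to 0.53) on the log2 scale.

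Among the E2F factors, 2 of the 7 tested rose, and both belong to the repressive branch of the family. E2f6 (ENSRNOG00000004449), which represses its targets without binding pocket proteins, had normalised counts of 857, 651 and 726 in Control and 1502, 1431 and 1348 in STREP. The groups were far apart, with a change of 0.94 ± 0.17, a fold of 1.91 (adjusted p = 6.49e-06). E2f6 was called in all 15 alternative fits, at 0.85 to 1.05. E2f4 (ENSRNOG00000015708), which works with the pocket proteins p107 and p130 in resting cells, had 414, 311 and 614 in Control and 762, 963 and 832 in STREP. No values overlapped, and the change was 0.93 ± 0.26, a fold of 1.91 (adjusted p = 0.0143). The E2f4 call was made in 8 of the 15 alternative fits, and was lost in edgeR (adjusted p = 0.102) and without Control 1, Control 2, STREP 2 or STREP 3, with adjusted p from 0.0603 to 0.120.

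The activating E2F factors held no call. E2f1, the archetypal activator of S phase genes, had normalised counts of 15.3, 11.1 and 28.4 in Control and 0, 0 and 8.98 in STREP. Each Control value was above each STREP value, yet the change of -2.66 ± 1.51 did not pass the test (adjusted p = 0.501). Without the STREP 3 library, which held all the E2f1 counts of its group, the adjusted p was 0.0402. E2f2 and E2f3, the other activators, were at -0.02 ± 0.41 and -0.08 ± 0.78. E2f5, a repressor related to E2f4, had a change of 0.84 ± 0.45 (adjusted p = 0.451), with Control values from 45.9 to 68.8 and STREP values from 66.6 to 132. The atypical repressor E2f7 was at 14.6 normalised counts or less in every library.

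**Figure D2:**
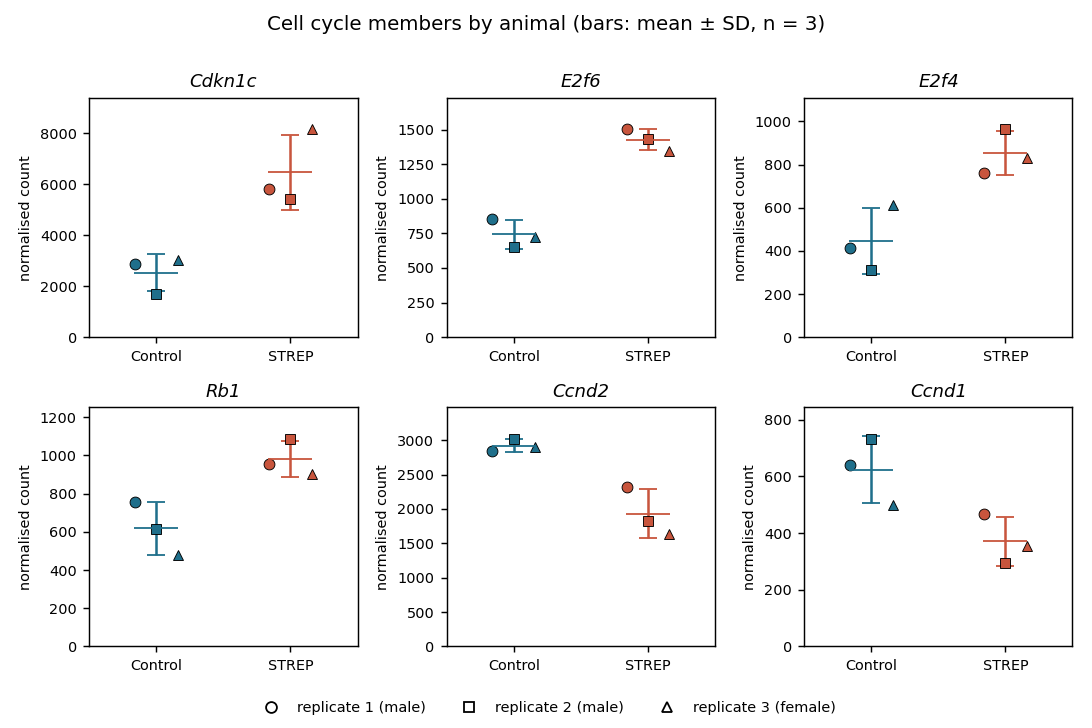
Normalised counts of the 5 called members and of Ccnd1 in each animal, with the mean and SD of 3 animals per group and an axis from 0 in each panel. Circles and squares are males and triangles are females. In each panel the Control and STREP animals do not overlap.

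Of the D cyclins, Ccnd2 fell. Ccnd2 (ENSRNOG00000057710), a mitogen-induced partner of Cdk4 and Cdk6, had normalised counts of 2844, 3022 and 2899.9 in Control and 2323, 1831 and 1632 in STREP. The Control animals lay close together and all STREP animals were lower. Ccnd2 fell by 0.60 on the log2 scale (SE 0.17, fold 0.660, adjusted p = 0.0126). The call was made in 6 of the 15 alternative fits. It was lost in edgeR (adjusted p = 0.0764) and without any 1 of the Control animals, STREP 2 or STREP 3, where the value ran from -0.62 to -0.49.

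Ccnd1, the D cyclin best known as a target of growth signalling, missed the threshold. Its normalised counts were 639, 734 and 501 in Control and 466, 295 and 355 in STREP, again without overlap, for a change of -0.75 ± 0.25 (adjusted p = 0.0699). Without Control 3 the adjusted p was 0.0446, and without STREP 1 it was 0.0192. Ccnd3, the third D cyclin, was at -0.13, with a 95% interval from -0.39 to 0.13 that lay within 1.5-fold.

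The kinases that these cyclins activate did not pass the test. Cdk4 had normalised counts of 2365, 2186 and 2619 in Control and 2197, 2341 and 2719.6 in STREP, and its change of 0.02 (95% interval -0.28 to 0.32) lay within 1.5-fold. Cdk2, the partner of E cyclins, had an interval from -0.37 to 0.36, also within 1.5-fold. Cdk6, which shares the D cyclins with Cdk4, was far lower in counts, at 20.3, 20.4 and 13.8 in Control and 39.9, 3.24 and 16.5 in STREP. The STREP animals spread so widely that its change of 0.12 had an interval from -1.79 to 2.03. The E cyclins Ccne1 and Ccne2 were at -0.73 ± 0.69 and 0.76 ± 0.80, both low in every library. Of the remaining kinases, Cdk5, which serves neurons more than the cycle, was at -0.03 (95% interval -0.38 to 0.32). Cdk7, the CDK-activating and transcription kinase, was at 0.15 (-0.10 to 0.41), so both were within 1.5-fold. In all, 1 of the 8 tested D and E cyclins and their kinases was called.

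**Figure D3:**
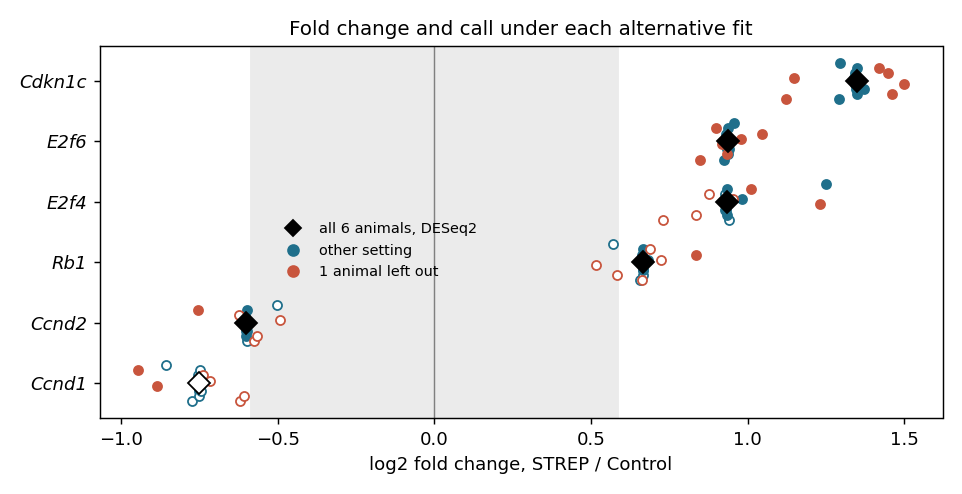
Log2 fold change of the 5 called members and Ccnd1 under each alternative. Diamonds are DESeq2 on all 6 animals, blue circles are other settings and red circles leave out 1 animal, and filled symbols were past both the adjusted p and fold thresholds. Cdkn1c and E2f6 stay filled throughout, while E2f4, Rb1 and Ccnd2 have open circles in 7, 11 and 9 fits.

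The replication genes held no call. The 7 members here are Pcna, the sliding clamp of the DNA polymerases, and the Mcm2 to Mcm7 subunits of the helicase that licenses origins. By DESeq2, 0 of the 7 were called and 0 had an unadjusted p under 0.05, and edgeR called 0. Pcna had normalised counts of 1335, 1215 and 1422 in Control and 1327, 1419.8 and 1497 in STREP. The groups overlapped, with a change of 0.10 (95% interval -0.20 to 0.39). Mcm2 had 1236, 959.8 and 1189 in Control and 1124, 1293 and 947 in STREP, for a change of -0.01 (-0.38 to 0.36). Mcm6 had 414, 409 and 389 in Control and 467, 367 and 355 in STREP, for a change of -0.03 (-0.45 to 0.40). These 3 genes and also Mcm4 and Mcm7, at -0.08 and 0.00, had intervals within 1.5-fold. Mcm3 was at -0.14 (-0.80 to 0.52), which did not. Mcm5 was the exception in spread, from 36.8 to 82.5 in Control and from 83.9 to 105 in STREP without overlap, and its change of 0.71 ± 0.47 did not pass (adjusted p = 0.623).

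The genes of G2 and mitosis held no call, neither among the 8 tested A and B cyclins, Cdk1 and phosphatases nor among the 8 tested mitotic genes. Cdk1, the kinase that starts mitosis, had normalised counts of 110.5, 51.9 and 55.0 in Control and 111, 88.5 and 91.3 in STREP. Control 1 stood level with the STREP animals, and the change of 0.41 had a 95% interval from -0.49 to 1.31. Its partner Ccnb1 had 128, 135 and 141 in Control and 124, 198 and 183 in STREP, with the lowest value in a STREP animal and a change of 0.32 (-0.31 to 0.95). Ccna2, the S and G2 phase cyclin, stayed between 9.35 and 25.2, and Ccna1, the A cyclin of the germ line, was without overlap at 137 to 189 in Control and 115 to 128 in STREP (-0.41 ± 0.31, adjusted p = 0.713).

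The Cdc25 phosphatases, which remove the inhibitory phosphates from CDKs, did not pass the test. Cdc25b had normalised counts of 2338, 2895 and 2392 in Control and 2089, 1641 and 2073 in STREP. There was no overlap, and the change of -0.39 ± 0.17 had an unadjusted p of 0.0180 and an adjusted p of 0.232. Cdc25c, the mitotic form, had 11.0, 19.6 and 31.0 in Control and 57.2, 122 and 25.4 in STREP. STREP 2 was far above the others and STREP 3 fell inside the Control range, and the change was 1.75 ± 0.72 (adjusted p = 0.207). Cdc25a, the form that acts at G1 and S, was at -0.03 (95% interval -0.35 to 0.30), within 1.5-fold. Cdkn3, a phosphatase that acts on Cdk2, was without overlap, at most 11.2 in Control and up to 40.4 in STREP, at 2.14 ± 1.17 (adjusted p = 0.468).

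The proliferation markers gave no call. Mki67, the Ki-67 antigen of cycling cells, had normalised counts of 189, 153 and 171 in Control and 158, 97.2 and 121 in STREP. The highest STREP animal fell within the Control range, and the change was -0.45 ± 0.33 (adjusted p = 0.692). Top2a, the topoisomerase of condensing chromosomes, had 41.1, 30.6 and 6.88 in Control and 9.32, 5.40 and 5.98 in STREP. Control 3 lay within the STREP range, and the change of -1.93 ± 1.00 did not pass (adjusted p = 0.421). The checkpoint and kinase genes Aurkb, Plk1, Bub1 and Bub1b were each near 0 in at least 1 library, and their changes ran from -1.88 ± 2.16 for Bub1b to 1.76 ± 1.65 for Aurkb. Without Control 1, which held all the Aurkb counts of its group, Aurkb was called higher. Aurka, the spindle pole kinase, and Cdc20, the activator of the anaphase-promoting complex, were at 0.28 ± 0.41 and 0.22 ± 0.22.

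**Figure D4:**
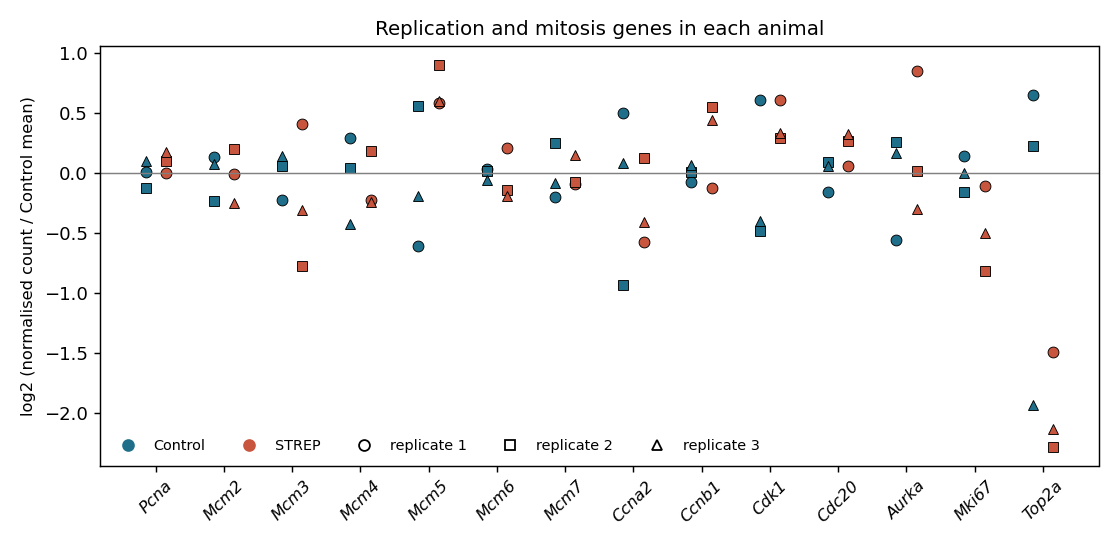
Normalised counts of 14 replication and mitosis members in each animal, as log2 of the ratio to the Control mean of the gene (0 is the Control mean). Pcna and most Mcm genes lie in a narrow band around 0, while Top2a spreads widely among the Control animals and its STREP animals all lie below 0.

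Over all roles, the Control and STREP values did not overlap in 13 tested members (27.1%, against 17.8% of all genes tested). These were the 5 called ones and Ccnd1, Cdc25b, E2f1, Cdkn3, Mcm5, Cdkn2b, Ccna1 and Cdk7. An unadjusted p under 0.05 was reached by 8 members (16.7%, against 12.2%), which were the 5 called ones, Ccnd1, Cdc25b and Cdc25c. In edgeR, 2 of 44 members were called (4.55%, against 1.77% of the 14928 genes it tested), Cdkn1c and E2f6.

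Control 2 had the lowest Control value for Cdkn1c, E2f6 and E2f4. Over the 46 tested members with a mean of at least 10, it was the lowest Control in 19, beside 13 for Control 1 and 15 for Control 3. Without Control 2, Cdkn1c and E2f6 were still called, and 2 members were called higher and 0 lower. The groups also differed in library total, as given above. The part of that difference in these calls was not tested beyond a thinning of all libraries to the smallest total. After thinning, 4 members were called higher and 1 lower, and they were the same members as without it.

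The promoters of the members were searched for the letters that E2F factors are known to bind. The sequences below are the 250 bases before the annotated start, from RefSeq on build GRCr8, which is not the build of the count table, and they are given 5′ to 3′ on the strand of the gene. Capitals mark E2F letters (TTTGGCGC, TTTCCCGC, TTTGCCGC or TTTCGCGC on either strand). E2f6 and Rb1 are shown because they rose, and Cdk1, Mcm2, Mcm6 and Mcm7 because they are replication or mitosis genes with such letters and no call.
E2f6, chr6:45321008-45321257, plus strand: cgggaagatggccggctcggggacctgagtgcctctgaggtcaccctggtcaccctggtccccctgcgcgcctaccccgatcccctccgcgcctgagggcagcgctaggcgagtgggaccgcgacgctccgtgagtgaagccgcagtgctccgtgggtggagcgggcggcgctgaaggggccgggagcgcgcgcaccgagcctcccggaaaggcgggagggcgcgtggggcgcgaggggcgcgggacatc
Rb1, chr15:54911858-54912107, minus strand: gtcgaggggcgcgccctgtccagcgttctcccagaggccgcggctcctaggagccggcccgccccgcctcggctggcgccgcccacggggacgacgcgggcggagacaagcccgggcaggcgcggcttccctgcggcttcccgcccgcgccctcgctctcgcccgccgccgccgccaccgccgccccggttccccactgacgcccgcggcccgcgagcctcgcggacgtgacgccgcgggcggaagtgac
Cdk1, chr20:19265043-19265292, plus strand: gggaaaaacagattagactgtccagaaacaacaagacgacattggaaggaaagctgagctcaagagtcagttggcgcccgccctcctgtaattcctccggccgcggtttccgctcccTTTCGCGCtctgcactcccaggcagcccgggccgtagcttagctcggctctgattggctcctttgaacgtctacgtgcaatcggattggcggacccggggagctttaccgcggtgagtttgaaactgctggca
Mcm2, chr4:122918095-122918344, minus strand: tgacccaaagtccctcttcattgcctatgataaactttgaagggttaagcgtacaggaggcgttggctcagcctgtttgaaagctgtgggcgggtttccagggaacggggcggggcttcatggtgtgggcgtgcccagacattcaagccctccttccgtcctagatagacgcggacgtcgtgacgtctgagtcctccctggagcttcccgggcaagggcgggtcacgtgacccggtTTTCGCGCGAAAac
Mcm6, chr13:42404353-42404602, minus strand: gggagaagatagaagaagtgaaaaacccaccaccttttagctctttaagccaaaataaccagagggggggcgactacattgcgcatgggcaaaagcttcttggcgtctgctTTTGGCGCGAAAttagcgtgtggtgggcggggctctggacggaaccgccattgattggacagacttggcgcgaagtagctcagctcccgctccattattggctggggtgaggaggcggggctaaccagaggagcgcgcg
Mcm7, chr12:22163179-22163428, minus strand: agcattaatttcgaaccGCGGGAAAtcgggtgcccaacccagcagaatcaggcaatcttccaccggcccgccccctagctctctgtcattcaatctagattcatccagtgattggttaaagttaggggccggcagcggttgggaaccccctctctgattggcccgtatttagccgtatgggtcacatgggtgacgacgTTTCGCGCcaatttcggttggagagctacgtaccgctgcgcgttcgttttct

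A window of 300 bases, from 250 before to 50 after the start, was found for 39 members. The E2F letters were in 10 of them (25.6%), namely Cdc25a, Cdk1, E2f3, Mcm2, Mcm3, Mcm5, Mcm6, Mcm7, Rb1 and Rbl1, against 2.14% of 33469 windows. Of the 5 called members, 2 had a window (E2f6 and Rb1). Rb1 was the one with E2F letters, and its match, at bases 253 to 260 of the window, lies after the start and so outside the sequence printed. The CHR letters TTTGAA, an element of late cell cycle genes, were in 13 members (33.3%, against 18.3%). The CCAAT letters were in 21 (53.8%, against 37.5%), and 1 E2F match, in Mcm7, overlaps a CCAAT. The printed promoters of E2f6 and Rb1 are 75.2% and 81.2% G or C, beside a median of 51.2% over all promoters. A match of letters is a description of the sequence, and no match says only that these letters are not in the window.

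Genes of the cycle beyond the members were read from lists of replication, mitosis and regulatory genes. Of 116 tested, 7 were called (6.03%), 4 higher and 3 lower, against 3.24% of all genes. Among the replication genes, Cdc6, the loader of the Mcm helicase, fell by 1.94 on the log2 scale (normalised counts 139, 140.3 and 189 in Control, 45.3, 29.2 and 47.9 in STREP, adjusted p = 0.000167). All STREP animals were below all Control animals, while the 6 Mcm subunits it loads held no call. Among the mitosis genes, the spindle motor Kif11 rose from 6.75, 9.35 and 1.72 to 42.6, 48.6 and 37.4 (2.85 ± 0.81, adjusted p = 0.0159, and 0.117 in edgeR), and the centrosome kinase Nek2 fell by 0.92 (adjusted p = 0.00134).

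Of the other regulators, Ccng2, an unconventional cyclin that marks arrested cells, rose by 1.03 ± 0.17 (adjusted p = 4.47e-07), with 755, 685 and 926 normalised counts in Control and 1534, 1689 and 1620.1 in STREP. Fzr1, the Cdh1 activator of the anaphase-promoting complex in G1, rose by 1.05 ± 0.27 (adjusted p = 0.00411), and the kinase Cdk17 by 0.67 ± 0.21 (adjusted p = 0.0344). Both calls were lost in edgeR, with adjusted p of 0.0707 and 0.130. Fbxw7, the ubiquitin ligase subunit that targets cyclin E, fell to a fold of 0.407 (adjusted p = 2.22e-08), with 1589, 1449 and 1509 in Control and 748, 632 and 469.7 in STREP. None of these groups overlapped. The study marks Nek2 and Fbxw7, from earlier literature, as selective for HCs over supporting cells. Both are in its list of genes downregulated in all of its comparisons. Those comparisons include the animals examined here, so for these animals the list is not independent evidence. The study's other comparisons used separate rats and mice given another ototoxic compound, and they were not examined here. The cell cycle transcription factors Foxm1 (0.77 ± 0.70) and Myc (0.23 ± 0.35) did not pass the test.

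In a list of stress and DNA damage response genes, 1 of the 27 tested was called, close to the 3.24% called among all genes tested. Plk3, a stress-responsive kinase, rose by 3.12 ± 0.72 (adjusted p = 0.00102), with 40.5, 8.50 and 2.58 normalised counts in Control and 153, 174 and 127 in STREP. The call was lost in edgeR (adjusted p = 0.0859), and 0 of the list were called after thinning to the smallest total. The ubiquitin ligase Mdm2 was at 0.17 (95% interval -0.17 to 0.50), within 1.5-fold. The cyclin G1 gene Ccng1 was at 0.33 ± 0.15 (adjusted p = 0.291). Gadd45a, a growth arrest gene, passed the adjusted p (0.0152) at a change of -0.56, below the fold threshold.

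The tissue label was checked against cell type markers, whose part in the member results was not tested. The HC list summed to 1800 to 2165 CPM in Control and 1571 to 1972 in STREP, with Otof from 22945 to 29590.1 normalised counts. The median log2 fold change of its 9 tested markers was -0.15. Gfi1, an HC transcription factor, was called and rose by 1.20 ± 0.21, while Myo7a, the myosin of the hair bundle, passed the adjusted p (0.0162) at a change of -0.49, under the fold threshold. Tmc1, a part of the mechanotransduction channel, was at -0.40, without overlap, and did not pass the test. Espn, Otof, Myo6 and Pou4f3 also had negative changes and were not called. Calb2 and Cdh23 went the other way, at 0.422 and 0.446, and were not called either. The groups did not overlap for Calb2 and did for Cdh23. The supporting cell list summed to 5871 to 7117 and 5924 to 7245 CPM, with 0 of 9 called. Schwann cell markers were high (12148 to 15485 and 8300 to 12707 CPM), with Sox10 called higher (0.95 ± 0.19) and Prx lower (-0.68 ± 0.21) of 10. Control 2 held the lowest Control value of Gfi1 and Sox10, as it did of Cdkn1c. Macrophage markers were at 100.0 to 163 and 106 to 179 CPM, with Mrc1 of 10 called higher and a median log2 fold change of 0.17. C1qa and C1qb were at 0.45 and 0.47 and Adgre1 at -0.70, each without overlap. Cx3cr1 was at -0.77 with overlap, and none of these genes was called. No marker was called of fibroblasts (598 to 796 and 479 to 806 CPM), endothelium (389 to 463 and 309 to 491), red cells (59.5 to 208 and 71.2 to 140.3, Gata1 at 0) or melanocytes (778 to 909 and 899 to 966). The median log2 fold change of the 9 tested melanocyte markers was -0.26, unlike the direction of their sum. Pmel, with 24808 to 38126 normalised counts, was at 0.29, and Mlana was at -0.96 without overlap. The lymphocyte list, which would hold dividing immune cells, was at 11.6 to 18.9 and 11.8 to 25.0 CPM with none called.

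The RefSeq annotation (GRCr8) gives Lpar6 and a long noncoding RNA as overlapping Rb1, and Greb1 as overlapping E2f6, and the libraries do not record strand, so reads of overlapping exons cannot be told apart. The normalised counts of Lpar6 were 443, 519 and 628 in Control and 545, 581 and 687 in STREP. Those of Greb1 were 675, 432 and 903 in Control and 545, 658 and 558 in STREP. Both overlapped between groups, unlike Rb1 and E2f6. No overlapping gene was annotated for Cdkn1c, E2f4 or Ccnd2.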

How the data were processed

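Vestibular epithelia of 6 rats (2 utricles and 6 cristae pooled per animal) were made into SMARTseq2 libraries, which do not mark strand. The labels' processing notes name STAR 2.5.3a and RSEM 1.3.0, and per the labels the rat Rnor_6.0 genome was used. The deposited values are the authors' expected counts per gene from RSEM, without normalisation, and all were whole numbers, so no rounding was needed. Library totals, CPM and the limit set by a count of 0 were computed from them.

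DESeq2 1.42.0 in R 4.3.3 was fitted to all 32883 genes, with group as the only term, and p-values were adjusted over all genes tested. A gene was called at an adjusted p under 0.05 with a fold change over 1.5, as in the study's methods. Normalised counts are counts divided by DESeq2 size factors. edgeR 4.0.16 (quasi-likelihood), other size factors, count filters, sex as a covariate, males alone, thinning and leaving out each animal were alternatives. Scripts were tested on simulated data. Replicates were numbered in the order of deposit, and the protocol pools tissue by animal. The named members were those called, with an unadjusted p under 0.05, or on a list of regulators, and the others were counted in their roles. From the lists of other cell cycle, stress and DNA damage response, and cell marker genes, called genes and a few regulators were named, and 1 item of the rule is not reported here. The members and lists were chosen with earlier results of these data known. RefSeq promoters were matched by symbol and searched on both strands. No transcript lengths were used, so levels were not compared between genes.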

Additional observations from a re-analysis of the deposited data

How the results depend on the processing

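Cdkn1c and E2f6 kept their call under all 15 alternative fits. Against 4 members called higher and 1 lower, edgeR with or without the count filter and library totals as size factors each gave 2 higher and 0 lower, and 2 that passed the adjusted p alone in place of 5. Males alone gave 0 lower and 3 past the adjusted p, and an adjusted p under 0.1 gave 2 lower. Leaving out 1 animal gave 2 to 4 higher, 0 to 2 lower and 2 to 5 past the adjusted p. Of the other cell cycle genes, 4 were called in edgeR with the count filter and in males alone, in place of 7, and 5 to 7 without 1 animal. Of the stress and DNA damage response list, in place of 1, edgeR with or without the filter and thinning to the smallest total called 0, males alone and the adjusted p with no fold threshold called 2, and leaving out 1 animal called 1 to 3. The median of the members ran from 0.00035 to 0.082 without 1 animal. The cause of these shifts was not tested.

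Members close to 0 turned sign without being called. Cdk4 was at -0.0094 with library totals, -0.0057 in males and -0.0041 after thinning (-0.074 to 0.088 without 1 animal), and Cdk6 was at -0.053 after thinning (-0.91 to 0.64). Cdkn1a was at 0.51 in males (-0.41 to 0.26), Mcm2 at 0.0015 with library totals and 0.14 in males (-0.13 to 0.10), and Mcm6 at 0.017 in males (-0.16 to 0.046). Over the named members, 157 values under the other settings kept direction and side of the threshold, 13 lost the call and 8 turned sign. Without 1 animal, 92 kept both, 14 lost the call, 3 gained it and 11 turned sign. Aurkb, which is not counted among these named members, gained a call without Control 1. No paired analysis was possible because the labels give no number that links a Control to a STREP library. The titles of STREP 1 and STREP 2 share a code, and without either one Cdkn1c and E2f6 were still called. Members under 100 normalised counts had SEs of up to 2.30, and a change there that missed the threshold is not shown to be absent.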

Other observations

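The response of the members was also compared between sexes by an interaction term, which rests on 1 female in each group. Of 34 members with a value, 0 had an adjusted p under 0.05 by DESeq2 and 2 had an unadjusted p under 0.05, Bub1 (adjusted p = 0.148) and Rbl2 (adjusted p = 0.897), while 34 genes passed among all genes. In the males alone the E2f6 change was 0.96 and the E2f4 change 1.25 on the log2 scale. The STREP side of that fit is replicates 1 and 2, whose titles share a code, so their independence is not given.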
